A study of Mus musculus with 10 samples.

Results

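Type I interferon-stimulated antiviral genes were followed in mouse bone marrow-derived macrophages (BMDMΦs) given 5 different media or cytokines. A list of 40 genes, given by symbol, was matched to the annotated probe sets of the array, the sets of short probes that each read the transcripts of a gene. Of these 40 genes, 38 had a probe set, each exactly 1, among 22206 probe sets in all, and Ifi44 and Ddx60 were not matched and are not analysed here. BMDMΦs had been grown for 7 days from the marrow of male C57Bl/6J mice aged 8 to 12 weeks, in medium with an addition conditioned by L929 cells, a source of the macrophage growth factor M-CSF. They were then kept for 48 h in complete medium (not stimulated), with conditioned medium (CM) of cancer-associated fibroblasts (CAFs) that carry Snai1 (WT CAF CM), with CM of CAFs without it (KO CAF CM), with IL4 at 10 ng/mL or with IFNγ at 100 units/mL, and total RNA was read on Clariom S arrays, 2 per condition. Snai1 encodes Snail1, a transcription factor of activated fibroblasts, and the CAFs had been starved of serum for 24 h. By the study's methods, no array held BMDMΦs given serum-free medium that no CAF had conditioned. CAF products and the change of medium therefore cannot be told apart when CAF CM is set against complete medium. Titles of the not stimulated arrays give DMEM and no serum content. The sample titles and the study's methods attach WT and KO to the CAFs, whereas the sample descriptions give both genotypes as those of the macrophages. The titles open with a number that recurs across the conditions and gives the replicate here, but nothing in the labels tells if replicate arrays stem from different mice or cultures, and the p-values then measure only the spread between these arrays, which may be technical.

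Type I interferons bind a receptor made of IFNAR1 and IFNAR2, whose kinases TYK2 and JAK1 activate transcription factors that include STAT2. With IRF9, STAT2 is part of a complex that binds the interferon-stimulated response element (ISRE) in the promoters of antiviral genes. IFNγ, the type II interferon, signals through JAK1 and JAK2 to a different element, the GAS, and induces IRF1, which can itself bind the ISRE. Macrophages express many of these genes at a basal level, because small amounts of type I interferon keep the pathway active in the absence of infection.

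The cells carried macrophage markers in every condition. The 7 measured macrophage markers of 8 listed lay at log2 signals between 9.4 and 18.48. Their summed log2 signal was 109.45 and 109.5 without stimulus, 111.89 and 112.52 with WT CAF CM, 108.22 and 109.62 after KO CAF CM, 101.65 and 103.14 with IL4, and 103.22 and 104.8 with IFNγ. Single macrophage markers moved with the conditions, in both directions. Of the 7, 3 rose and 0 fell with WT CAF CM, and 2 rose and 1 fell with KO CAF CM. With IL4 0 rose and 3 fell, and with IFNγ 1 rose and 1 fell. Shares over all probe sets follow below. Cd14, a receptor for bacterial lipopolysaccharide, fell with IL4 (-3.58, limma adjusted p = 4e-07) and IFNγ (-4.28, adjusted p = 3e-08) and rose with WT (0.74) and KO CAF CM (0.78). Adgre1 rose with WT (0.96) and KO CAF CM (1.05), Itgam with WT CAF CM (0.98) and Fcgr1 with IFNγ (1.48). Of these rises, only that of Adgre1 with KO CAF CM stayed called whichever array was left out. Mertk, a receptor for dying cells, fell with KO CAF CM (-2.51, adjusted p = 1.8e-05) and IL4 (-1.04, adjusted p = 0.025, lost without any of 3 arrays). It differed between the 2 media (WT minus KO 1.73, adjusted p = 0.0032). The 7 measured fibroblast markers of 8 listed lay between 3.21 and 6.56 in all arrays, around or under the array medians of 5.57 to 5.71. The summed log2 signal of the fibroblast markers was 32.47 and 32.68 in not stimulated BMDMΦs, 33.25 and 34.87 with WT CAF CM and 32.89 and 33.26 with KO CAF CM, and limma called none of them in either CAF CM against not stimulated (1 of 7 at an unadjusted p under 0.05 in each). Plasmacytoid dendritic cells, a main source of type I interferon, were read from 6 markers, of which Siglech, a defining marker, lay between 5.78 and 6.68 in all arrays and Tcf4, a transcription factor that other cells also use, between 13.91 and 15.28. The summed log2 signal of these 6 was 41.98 and 43.01 without stimulus, 43.75 and 45.44 with WT CAF CM, and 43.07 and 43.89 with KO CAF CM, with a median difference from not stimulated of 0.05 with WT and -0.1 with KO CAF CM. Cox6a2 rose with WT (1.34, adjusted p = 0.007) and KO CAF CM (1, adjusted p = 0.023) and Ccr9 with KO CAF CM (1.83, adjusted p = 0.013), calls each lost without any of 2 or 3 arrays. Tcf4 fell with KO CAF CM (-1.29, adjusted p = 0.00038), IL4 (-1.06, adjusted p = 0.005) and IFNγ (-0.78, adjusted p = 0.012, lost without any of 3 arrays). The part of these macrophage and dendritic cell markers in the results was not tested. Markers of neutrophils and lymphocytes reached at most 5.82. Of the 6 dendritic cell markers, Clec9a reached 12.99 and 13.45 with IFNγ and Xcr1 rose with IFNγ by 2.68. The other 4 were not called with IFNγ, among them Flt3 (mean 3.56 without stimulus and 3.79 with IFNγ) and Zbtb46 (3.71 and 3.58). In bulk RNA, fewer cells of a type and less RNA per cell cannot be told apart.

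Promoter sequence was available for 28 of the 38 measured genes (35 start sites, RefSeq, build GRCm38.p6, 250 bases before to 50 after each start). The core letters of the ISRE, GAAANNGAAA on either strand and with overlapping matches counted, were present in 12 of these 35 promoters (34.3%), from 11 genes, against 3.44% of all 32851 promoters of the same length. The core of the GAS, TTCNNNGAA, which reads the same on both strands, was present in 8 of the 35 (22.9%) against 8.3% of all. The stretches with ISRE letters are shown for 7 of these 11 genes, picked after their values were seen to cover several roles, and not for Eif2ak2, Ifitm3, Oas3 and Trim30a. They are written on the strand of the gene, 5′ to 3′, with the matches in capitals. Such a match is a description of the letters and not evidence of binding.
Ifit1 (chr19:34640765-34640833, plus strand): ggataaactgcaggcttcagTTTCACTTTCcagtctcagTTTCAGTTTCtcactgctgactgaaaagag
Ifit3 (chr19:34583353-34583436, plus strand): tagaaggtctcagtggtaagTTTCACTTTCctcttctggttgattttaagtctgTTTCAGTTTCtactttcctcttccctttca
Isg15 (chr4:156200855-156200916, minus strand): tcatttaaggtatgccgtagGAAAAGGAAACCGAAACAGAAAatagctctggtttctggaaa
Bst2 (chr8:71537567-71537622, minus strand): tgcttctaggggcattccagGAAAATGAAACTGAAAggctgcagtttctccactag
Oas1a (chr5:120907510-120907565, minus strand): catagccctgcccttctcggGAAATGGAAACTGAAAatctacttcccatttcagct
Ifih1 (chr2:62646206-62646243, minus strand): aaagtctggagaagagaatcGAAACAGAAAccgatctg
Rsad2 (chr12:26456543-26456592, minus strand): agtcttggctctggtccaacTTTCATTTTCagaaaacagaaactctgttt

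Ifit1 and Ifit3 each held 2 separate matches upstream of the start, at positions -104 and -85 in Ifit1 and -156 and -122 in Ifit3, counted from the start site. Isg15 held 3 overlapping matches and Bst2 and Oas1a 2 each, while the single match of Ifih1 lay after the start. Of the 11 measured genes with ISRE letters, 9 rose with IFNγ in the test described next, and of the 17 with a promoter sequence but without these letters in the window, 13 rose.

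IFNγ raised most of these genes, both CAF CM raised a smaller set, and IL4 lowered a few. A gene is said to rise, fall or be called when limma, fitted to all probe sets and all 10 arrays, gave a p-value under 0.05 after Benjamini-Hochberg adjustment over all 22206 probe sets. All differences are in log2 units. With IFNγ, 31 of the 38 genes rose and 0 fell against not stimulated BMDMΦs, with a median difference of 1.54, where 5.38% of all probe sets rose, 6.68% fell and the median over all was -0.01 (35 of the 38 had an unadjusted p under 0.05). With KO CAF CM, 20 rose and 1 fell (median 0.8), where 6.83% of all probe sets rose and 8.00% fell. With WT CAF CM, 7 rose and 0 fell (median 0.5), where 4.08% of all probe sets rose and 4.47% fell, and 20 of the 38 had an unadjusted p under 0.05. With IL4, 0 rose and 7 fell (median -0.68), where 1.66% of all probe sets rose and 2.38% fell, and 24 had an unadjusted p under 0.05. The 4 comparisons share the same 2 not stimulated arrays.

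**Figure D1:**
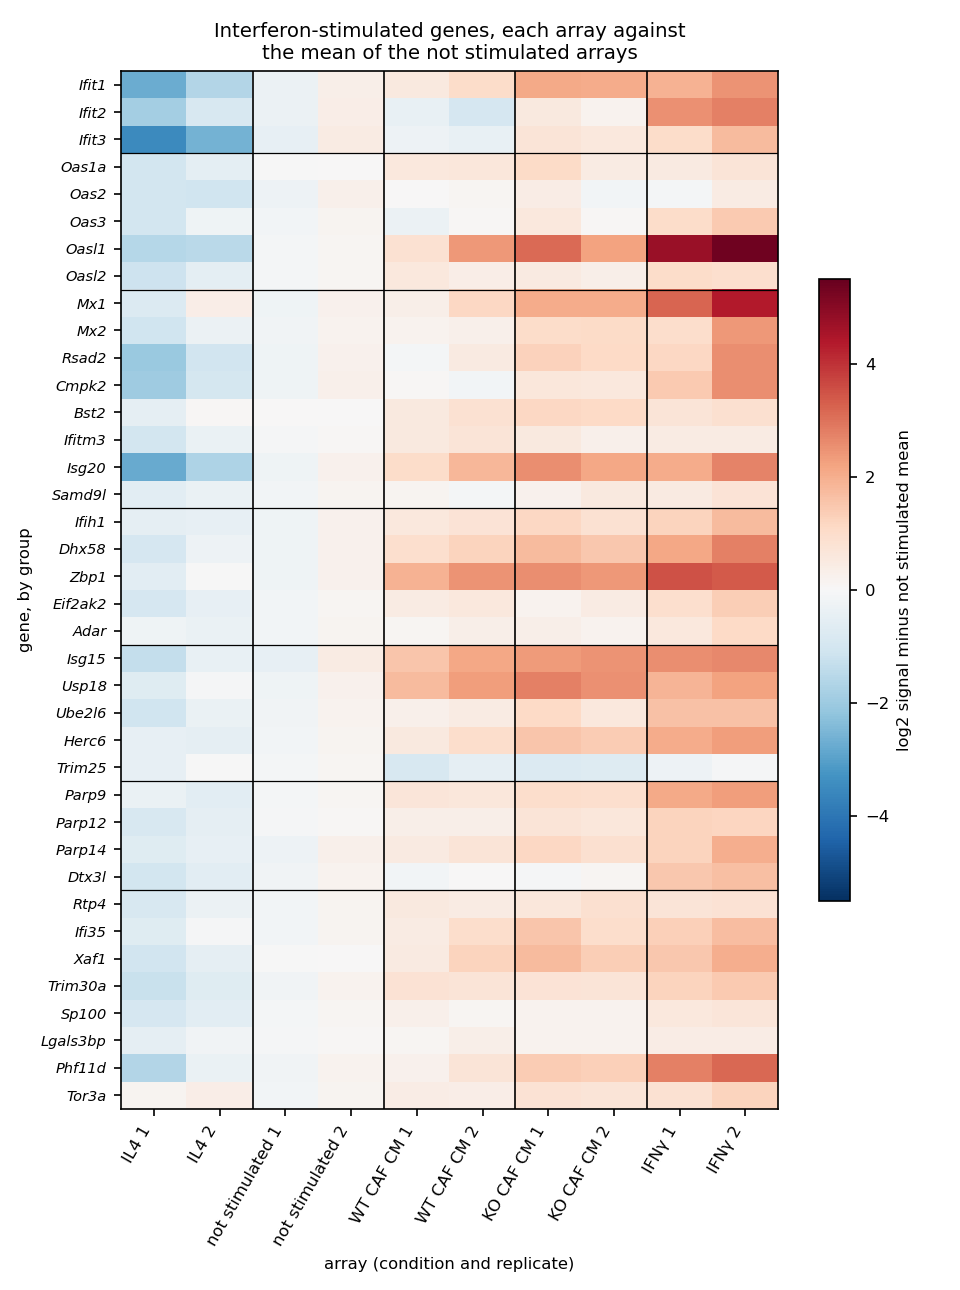
Log2 signal of each of the 38 genes (rows, grouped by role) in each of the 10 arrays (columns), minus the mean of the 2 not stimulated arrays of that gene. Blue is lower and red is higher, and the IL4 arrays are mostly blue while the KO CAF CM and IFNγ arrays are mostly red.

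**Figure D2:**
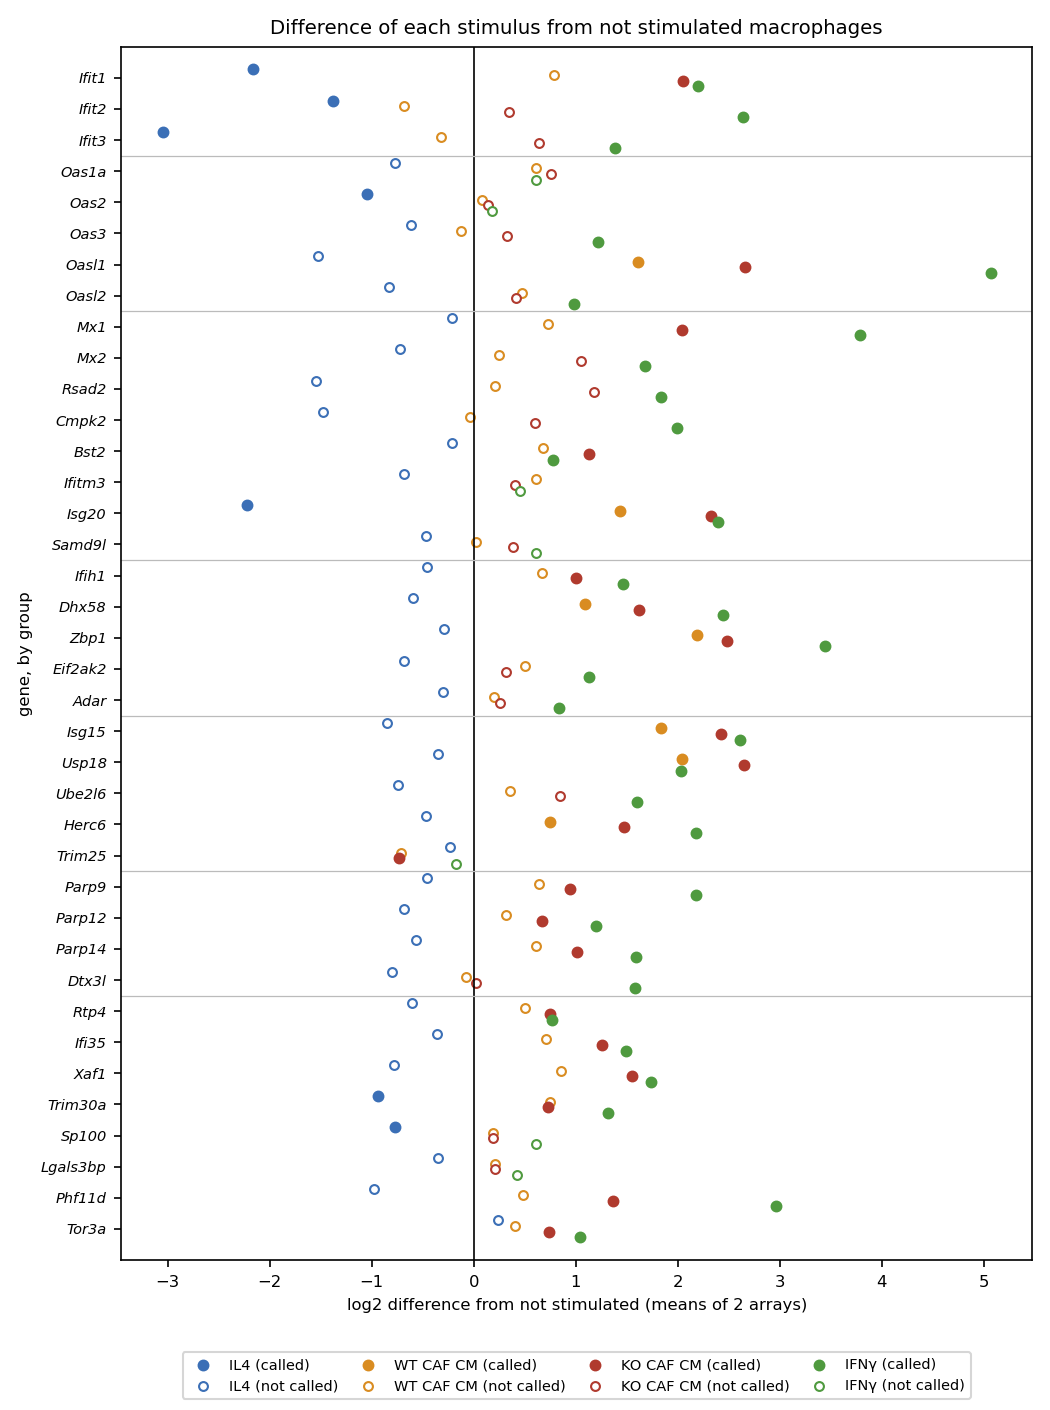
Log2 difference of each stimulus from not stimulated BMDMΦs (horizontal axis, means of 2 arrays) for the 38 genes (vertical axis, grouped by role), with filled points where limma called the difference and open points where it did not. The filled points number 31 for IFNγ, 21 for KO CAF CM, 7 for WT CAF CM and 7 for IL4, the last all to the left of 0.

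How many were called depended on single arrays. With 1 array left out at a time, the count for IFNγ was 20 without IFNγ replicate 2 and 21 without not stimulated replicate 1, and up to 31 otherwise. For KO CAF CM it was 11 without not stimulated replicate 1 and 12 without KO CAF CM replicate 1. For WT CAF CM it was 2 without not stimulated replicate 1 or WT CAF CM replicate 2 and 3 without not stimulated replicate 2, and for IL4 it was 1, 2 and 3 without not stimulated replicate 2, IL4 replicate 1 and not stimulated replicate 1. The genes called whichever array was left out were 20 for IFNγ, 11 for KO CAF CM, Usp18 and Zbp1 for WT CAF CM, and Ifit3 for IL4. None of the called differences changed sign under any setting that was run.

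IFNγ was most often the highest condition and IL4 the lowest. Mean signal was highest with IFNγ in 33 of the 38 genes, with KO CAF CM in 3 (Usp18, Bst2 and Oas1a), with WT CAF CM in Ifitm3 and without stimulus in Trim25. It was lowest with IL4 in 36, the exceptions being Trim25 (KO CAF CM) and Tor3a (not stimulated). Over all probe sets, IFNγ was highest in 21.4% and IL4 lowest in 18.6%. From low to high, the full order IL4, not stimulated, WT CAF CM, KO CAF CM and IFNγ held in 22 of the 38 genes. The share of all probe sets with this order was not counted. Neighbours in this order often did not differ beyond the spread of the arrays. WT and KO CAF CM in particular did not differ by the adjusted test in any of the 38, as described further on.

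The IFIT proteins bind foreign RNA and block its translation. Log2 signals of Ifit1 were 11.42 and 12.08 without stimulus, 12.3 and 12.78 with WT CAF CM, 13.84 and 13.77 after KO CAF CM, 9.04 and 10.13 with IL4, and 13.66 and 14.24 with IFNγ. The IL4 arrays were lowest, and both KO CAF CM arrays lay within the range of the IFNγ arrays. Ifit1 rose with KO CAF CM (2.05, SE 0.35, limma adjusted p = 0.0019) and with IFNγ (2.2, SE 0.35, adjusted p = 0.0013) and fell with IL4 (-2.16, SE 0.35, adjusted p = 0.0047). The difference with WT CAF CM was 0.79 (SE 0.35, adjusted p = 0.24).

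Ifit3 showed the largest fall with IL4 among the 38 genes. Its log2 signals were 10.96 and 11.83 with IL4 against 14 and 14.89 without stimulus, 14.18 and 14.06 with WT CAF CM, 15.17 and 15.01 after KO CAF CM, and 15.47 and 16.17 with IFNγ. Both IL4 arrays lay well under all others, and both WT CAF CM arrays lay within the not stimulated range. The fall with IL4 was -3.05 (SE 0.34, 8.28-fold, adjusted p = 0.00038) and the rise with IFNγ 1.38 (SE 0.34, adjusted p = 0.021, and not called without IFNγ replicate 2 or not stimulated replicate 1).

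Ifit2, the neighbour of Ifit3 on the chromosome, had log2 signals of 13.31 and 13.59 with IFNγ against 10.46 and 11.15 without stimulus. With WT CAF CM they were 10.38 and 9.87, with KO CAF CM 11.32 and 11, and with IL4 8.95 and 9.91. The IFNγ arrays stood above all others, and the WT CAF CM arrays lay just under the not stimulated ones and overlapped those of IL4. Ifit2 rose with IFNγ (2.64, SE 0.33, 6.25-fold, adjusted p = 0.00021) and fell with IL4 (-1.38, SE 0.33, adjusted p = 0.039, a call lost without any of 5 arrays), and with WT CAF CM its difference was -0.68 (SE 0.33, adjusted p = 0.29).

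The OAS enzymes are activated by double-stranded RNA and make a messenger that switches on RNase L, which cleaves RNA in the cell. The OAS-like protein encoded by Oasl1 acts in another way, by limiting translation of Irf7 in the mouse. Oasl1 showed the largest rise with IFNγ. It had log2 signals of 6.19 and 6.37 without stimulus, 11.04 and 11.65 with IFNγ, 9.38 and 8.5 with KO CAF CM, 7.13 and 8.66 after WT CAF CM, and 4.7 and 4.8 with IL4. Both arrays of every stimulus lay outside the not stimulated range, IL4 under it and the others above it, and the 2 WT CAF CM arrays were far apart, the upper one above an array of KO CAF CM. The difference was 5.07 with IFNγ (SE 0.43, 33.5-fold, adjusted p = 1e-05), 2.66 with KO CAF CM (SE 0.43, adjusted p = 0.0012), 1.61 with WT CAF CM (SE 0.43, adjusted p = 0.037, lost without any of 5 arrays) and -1.53 with IL4 (SE 0.43, adjusted p = 0.076).

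The other OAS genes moved less. Oas3 rose with IFNγ by 1.22 (SE 0.29, adjusted p = 0.015) and Oasl2 by 0.98 (SE 0.22, adjusted p = 0.011), calls that were lost without any of 2 and 3 arrays, respectively, among them IFNγ replicate 2 and not stimulated replicate 1. Oas1a and Oas2, which encode enzymes of the same family, did not pass the test with IFNγ (0.61, SE 0.24, adjusted p = 0.15, and 0.18, SE 0.26, adjusted p = 0.78). Log2 signals of Oas2 were 11.27 and 11.8 without stimulus, 11.58 and 11.66 with WT CAF CM, 11.94 and 11.41 after KO CAF CM, 11.43 and 12 with IFNγ, and 10.53 and 10.45 with IL4. The IL4 arrays stood under all others, which overlapped, and the fall with IL4 was -1.05 (SE 0.26, adjusted p = 0.046, lost without any of 6 arrays). Oas2 and Oas3 lie next to each other on the chromosome.

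A further 8 genes act on viral entry, release or replication, and 6 of these 8 rose with IFNγ, 3 also with KO CAF CM, and 1 of them with WT CAF CM too, while 1 fell with IL4. Mx1 encodes a dynamin-like GTPase that blocks influenza virus, although the allele of C57BL/6 mice makes no functional protein. Its log2 signals were 9.92 and 10.36 without stimulus, 10.46 and 11.28 with WT CAF CM, 12.19 and 12.16 after KO CAF CM, 9.37 and 10.5 with IL4, and 13.36 and 14.49 with IFNγ. The not stimulated arrays lay inside the IL4 range, the lower WT CAF CM array just reached it, and WT CAF CM, KO CAF CM and IFNγ followed upward without overlap between them. The differences were 3.79 with IFNγ (SE 0.42, 13.8-fold, adjusted p = 9.2e-05), 2.04 with KO CAF CM (SE 0.42, 4.1-fold, adjusted p = 0.0062, and not called without not stimulated replicate 1) and 0.73 with WT CAF CM (SE 0.42, adjusted p = 0.4).

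Isg20, an exonuclease that degrades viral RNA, changed in all 4 comparisons. Its log2 signals were 10.27 and 10.76 without stimulus, 11.53 and 12.36 with WT CAF CM, 13.06 and 12.63 after KO CAF CM, 12.56 and 13.24 with IFNγ, and 7.75 and 8.83 with IL4. The KO CAF CM arrays lay inside the IFNγ range and the WT CAF CM arrays under both. Its differences were 2.33 with KO CAF CM (SE 0.38, adjusted p = 0.0015), 2.39 with IFNγ (SE 0.38, adjusted p = 0.0013), 1.43 with WT CAF CM (SE 0.38, adjusted p = 0.04, lost without any of 3 arrays) and -2.22 with IL4 (SE 0.38, 4.68-fold, adjusted p = 0.0066, lost without not stimulated replicate 2 or IL4 replicate 1).

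Bst2 encodes tetherin, which holds budding virus particles at the cell surface. Log2 signals were 15.75 and 15.76 without stimulus, 16.29 and 16.58 with WT CAF CM, 16.91 and 16.85 after KO CAF CM, 16.45 and 16.61 with IFNγ, and 15.27 and 15.81 with IL4. KO CAF CM gave the highest arrays, and those of WT CAF CM and IFNγ overlapped. The rise with KO CAF CM was 1.13 (SE 0.21, adjusted p = 0.0036) and with IFNγ 0.78 (SE 0.21, adjusted p = 0.034, lost without any of 4 arrays), and the difference with WT CAF CM was 0.68 (SE 0.21, adjusted p = 0.078). KO CAF CM and IFNγ differed by 0.35 (95% interval -0.12 to 0.82, adjusted p = 0.38).

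Rsad2, which encodes viperin, and Cmpk2, a nucleotide kinase of mitochondria, are neighbours on the chromosome. Log2 signals of Rsad2 were 12.01 and 13.44 with IFNγ and 8.84 and 9.82 with IL4, against 10.63 and 11.13 without stimulus, 10.79 and 11.39 with WT CAF CM and 12.13 and 11.99 with KO CAF CM. Those of Cmpk2 were 13.51 and 14.63 with IFNγ, 10.1 and 11.1 with IL4, 11.82 and 12.33 without stimulus, 12.14 and 11.93 with WT CAF CM, and 12.71 and 12.63 with KO CAF CM. In both genes the 2 IFNγ arrays were more than 1 log2 unit apart and the IL4 arrays lay under all others. With IFNγ Rsad2 rose by 1.84 (SE 0.43, adjusted p = 0.015) and Cmpk2 by 1.99 (SE 0.37, adjusted p = 0.0037), the first not called without IFNγ replicate 2 or not stimulated replicate 1. With IL4 the differences were -1.55 and -1.48, with adjusted p = 0.076 and 0.052 by limma.

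Of the remaining 3 genes, Mx2, a relative of Mx1, rose with IFNγ by 1.68 (SE 0.38, adjusted p = 0.012, lost without IFNγ replicate 2 or not stimulated replicate 1). Ifitm3, which hinders fusion of viruses in endosomes, and Samd9l, which limits translation of viral RNA, were not called in any comparison with not stimulated BMDMΦs. Their differences ranged from -0.68 with IL4 to 0.61 with WT CAF CM for Ifitm3 and from -0.47 with IL4 to 0.61 with IFNγ for Samd9l.

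All 5 genes grouped with the nucleic acid sensors, of which Adar encodes an editing enzyme and not a sensor, rose with IFNγ. KO CAF CM raised 3 of them, and WT CAF CM 2. Zbp1 encodes a sensor of Z-form nucleic acid that starts necroptosis. Its log2 signals were 10.16 and 10.66 without stimulus, 12.31 and 12.89 with WT CAF CM, 12.97 and 12.81 after KO CAF CM, 13.93 and 13.78 with IFNγ, and 9.85 and 10.4 with IL4. All CAF CM and IFNγ arrays stood above the not stimulated and IL4 arrays, and the 2 CAF CM overlapped. The differences were 2.19 with WT CAF CM (SE 0.26, 4.56-fold, adjusted p = 0.00023), 2.48 with KO CAF CM (SE 0.26, adjusted p = 5.9e-05) and 3.44 with IFNγ (SE 0.26, 10.9-fold, adjusted p = 4.5e-06), all called whichever array was left out.

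Dhx58 encodes LGP2, a relative of RIG-I that modulates RNA sensing, and Ifih1 encodes MDA5, a sensor of long double-stranded RNA. Dhx58 had log2 signals of 11.13 and 11.62 without stimulus, 12.31 and 12.61 with WT CAF CM, 13.12 and 12.88 after KO CAF CM, 13.5 and 14.13 with IFNγ, and 10.45 and 11.1 with IL4, so that the 5 conditions did not overlap. It rose with WT CAF CM (1.09, SE 0.28, adjusted p = 0.035, lost without any of 4 arrays), KO CAF CM (1.62, SE 0.28, adjusted p = 0.0021) and IFNγ (2.44, SE 0.28, adjusted p = 0.00013). Ifih1 rose with KO CAF CM (1, SE 0.23, adjusted p = 0.013, lost without KO CAF CM replicate 1 or not stimulated replicate 1) and IFNγ (1.46, SE 0.23, adjusted p = 0.0013). Eif2ak2, which encodes the kinase PKR that stops translation, and Adar, which edits double-stranded RNA, rose with IFNγ by 1.13 (SE 0.23, adjusted p = 0.0059) and 0.84 (SE 0.21, adjusted p = 0.023), calls that were lost without IFNγ replicate 2 or not stimulated replicate 1, and lay 0.2 to 0.5 above the not stimulated mean with either CAF CM.

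The ISG15 system attaches and removes a ubiquitin-like tag. Isg15, the tag itself, had log2 signals of 6.91 and 7.78 without stimulus, 8.88 and 9.49 with WT CAF CM, 9.71 and 9.82 after KO CAF CM, 9.9 and 10.01 with IFNγ, and 6.06 and 6.94 with IL4. All CAF CM and IFNγ arrays were above the not stimulated ones, and an IL4 array overlapped those. The rises were 1.84 with WT CAF CM (SE 0.33, 3.58-fold, adjusted p = 0.0045, lost without not stimulated replicate 1 or WT CAF CM replicate 2), 2.42 with KO CAF CM (SE 0.33, 5.35-fold, adjusted p = 0.00043) and 2.61 with IFNγ (SE 0.33, 6.11-fold, adjusted p = 0.00027).

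Usp18, the protease that removes ISG15 and also silences the type I receptor, had log2 signals of 11.65 and 12.09 without stimulus, 13.62 and 14.19 with WT CAF CM, 14.66 and 14.37 after KO CAF CM, 13.72 and 14.07 with IFNγ, and 11.22 and 11.82 with IL4. Unlike most of the others, its highest arrays were those of KO CAF CM, and the IFNγ arrays lay inside the WT CAF CM range. It rose by 2.04 with WT CAF CM (SE 0.27, adjusted p = 0.00055), 2.65 with KO CAF CM (SE 0.27, adjusted p = 5.1e-05) and 2.03 with IFNγ (SE 0.27, adjusted p = 0.00039), all 3 called whichever array was left out. KO CAF CM and IFNγ differed by 0.62 (95% interval 0.02 to 1.22, adjusted p = 0.19).

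Herc6, a ligase that attaches ISG15 in the mouse, rose with WT CAF CM by 0.75 (SE 0.21, adjusted p = 0.045, lost without any of 9 arrays), KO CAF CM by 1.47 (SE 0.21, adjusted p = 0.0005) and IFNγ by 2.18 (SE 0.21, adjusted p = 2.6e-05). Ube2l6, the conjugating enzyme that works before it, rose with IFNγ (1.6, SE 0.27, adjusted p = 0.0017), and with KO CAF CM its difference was 0.85 (SE 0.27, adjusted p = 0.056). Trim25, a ligase that activates RIG-I, went the other way. Its log2 signals were 13.55 and 13.78 without stimulus, 12.76 and 13.16 with WT CAF CM, 12.92 and 12.94 after KO CAF CM, 13.22 and 13.65 with IL4, and 13.38 and 13.61 with IFNγ, lowest in the 4 CAF CM arrays. The fall with KO CAF CM was -0.73 (SE 0.22, adjusted p = 0.041), a call lost without any of 6 arrays, with median centring and with array weights, and with WT CAF CM the difference was -0.71 (SE 0.22, adjusted p = 0.073).

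Parp9, Parp12 and Parp14 encode ADP-ribosyltransferases, and Dtx3l encodes the ubiquitin ligase partner of PARP9. All 4 rose with IFNγ, by 2.18 (Parp9), 1.2 (Parp12), 1.59 (Parp14) and 1.58 (Dtx3l), with adjusted p = 9.6e-06, 0.001, 0.0022 and 0.00036 by limma. Parp9 and Dtx3l lie next to each other on the chromosome, with Parp14 on the other side of Dtx3l. Log2 signals of Parp9 were 10.73 and 10.95 without stimulus, 11.49 and 11.47 with WT CAF CM, 11.79 and 11.76 after KO CAF CM, 10.47 and 10.28 with IL4, and 12.91 and 13.13 with IFNγ. Those of Dtx3l were 12.07 and 12.45, 12.1 and 12.26, 12.19 and 12.36, 11.25 and 11.66, and 13.76 and 13.92 in the same order. The arrays of Parp9 kept the 5 conditions apart, whereas for Dtx3l the arrays with either CAF CM lay inside the not stimulated range. With KO CAF CM Parp9 rose by 0.94 (SE 0.18, adjusted p = 0.0044) and Dtx3l had a difference of 0.02 (SE 0.21, adjusted p = 0.98), and whether the 2 genes differ in this was not tested.

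Among the 8 other genes, 6 rose with IFNγ and the same number with KO CAF CM, none was called with WT CAF CM (4 of 8 at an unadjusted p under 0.05), and 2 fell with IL4. Phf11d, a member of an interferon-induced cluster of PHD finger genes, had log2 signals of 14.46 and 14.84 with IFNγ, 13.1 and 13.02 with KO CAF CM, 11.93 and 12.41 after WT CAF CM, 11.48 and 11.9 without stimulus, and 10.1 and 11.31 with IL4. No 2 conditions overlapped. It rose with IFNγ by 2.96 (SE 0.34, 7.78-fold, adjusted p = 0.00012) and with KO CAF CM by 1.37 (SE 0.34, adjusted p = 0.018, lost without any of 3 arrays). Xaf1, a proapoptotic factor, rose with KO CAF CM by 1.55 (SE 0.29, adjusted p = 0.0032) and with IFNγ by 1.74 (SE 0.29, adjusted p = 0.0016).

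Ifi35, Rtp4, Trim30a and Tor3a rose with both KO CAF CM (0.73 to 1.26) and IFNγ (0.77 to 1.49). Their differences with WT CAF CM, not called, were 0.71, 0.5, 0.75 and 0.4 in the same order (adjusted p = 0.18, 0.24, 0.063 and 0.33 by limma). For Trim30a this was no smaller than the 0.73 with KO CAF CM. With KO CAF CM the calls of Rtp4 and Trim30a were each lost without any of 8 arrays, that of Tor3a without any of 3 and that of Ifi35 without any of 2. With IFNγ the call of Rtp4 was lost without any of 6 arrays, that of Tor3a without any of 2 and that of Ifi35 without IFNγ replicate 2, while Trim30a stayed called. Trim30a, which dampens Toll-like receptor signalling in the mouse, fell with IL4 by -0.94 (SE 0.22, adjusted p = 0.037, lost without any of 7 arrays), from 13.57 and 13.93 to 12.52 and 13.09. Sp100, a component of nuclear bodies, fell with IL4 by -0.77 (SE 0.19, adjusted p = 0.047), a call lost without any of the 10 arrays. Lgals3bp, a secreted glycoprotein, had differences between -0.35 and 0.42 and was not called.

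WT CAF CM gave lower signals than KO CAF CM for most of the 38 genes, but no single gene passed the adjusted test. The mean was lower with WT CAF CM in 31 genes, higher in 6 and equal to 2 decimals in Sp100, with a median difference (WT minus KO) of -0.42 against -0.01 over all probe sets. In limma, 0 of the 38 were called in either direction, where 0.694% of all probe sets were higher and 0.666% lower with WT CAF CM, and 11 had an unadjusted p under 0.05, all 11 lower with WT CAF CM, where 5.22% of all probe sets were lower at that p. Both WT CAF CM arrays lay under both KO CAF CM arrays in 24 of the 38, and in 19.3% of all probe sets. Other fits gave 2 calls with the replicate number as a block (Ifit1 and Mx1), 1 with trend and robust moderation (Herc6) and 0 with array weights, with the 2 groups alone and without each array in turn.

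The genes with the largest such differences came from several of the roles above. For Mx1 the difference was -1.3 (SE 0.42, 95% interval -2.23 to -0.38, 2.47-fold, adjusted p = 0.23) and for Ifit1 -1.26 (SE 0.35, interval -2.03 to -0.5, 2.4-fold, adjusted p = 0.14). Ifit2 (-1.03, SE 0.33, adjusted p = 0.22) and Oasl1 (-1.05, SE 0.43, adjusted p = 0.4) also differed by more than 2-fold, the arrays of Oasl1 overlapping. Among smaller differences, Herc6 had arrays of 13.91 and 14.34 with WT CAF CM and 14.9 and 14.78 with KO CAF CM (-0.71, SE 0.21, adjusted p = 0.16), which did not overlap. At the other end, the mean was higher with WT CAF CM for Ifitm3 (0.21, interval -0.28 to 0.7), Eif2ak2 (0.18, interval -0.32 to 0.68) and Oasl2 (0.06, interval -0.42 to 0.54), and Sp100, Lgals3bp, Trim30a and Trim25 had differences of 0 to 0.03. The p-values that miss the threshold do not show that both CM act alike.

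**Figure D3:**
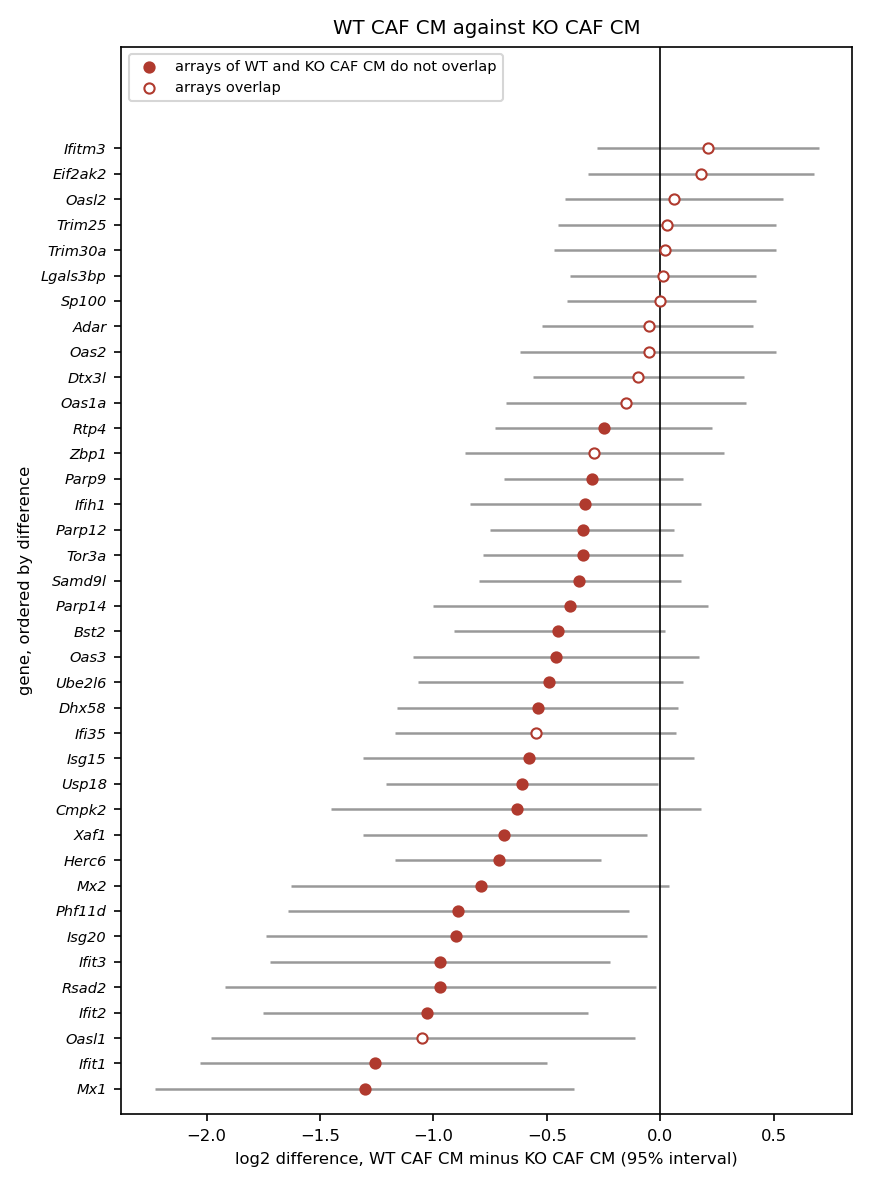
Log2 difference of WT CAF CM minus KO CAF CM (horizontal axis) for the 38 genes (vertical axis, ordered by the difference), with 95% intervals from limma as lines and filled points where the 2 arrays of each condition did not overlap. The 24 filled points all lie left of 0, and 11 intervals exclude 0.

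Against IFNγ directly, both CAF CM gave lower signals. With WT CAF CM 19 of the 38 were lower and 0 higher than with IFNγ (median -0.88), where 5.53% of all probe sets were lower and 6.09% higher, and with KO CAF CM 10 were lower and 0 higher (median -0.58), where 6.84% were lower and 7.21% higher. The largest differences were those of Oasl1 (-3.45, SE 0.43, adjusted p = 0.00017), Ifit2 (-3.32, SE 0.33, adjusted p = 2.7e-05) and Mx1 (-3.05, SE 0.42, adjusted p = 0.00039) for WT CAF CM, and again Oasl1 (-2.4, SE 0.43, adjusted p = 0.0021) and Ifit2 (-2.29, SE 0.33, adjusted p = 0.00044) for KO CAF CM. Genes such as Usp18, Oas1a and Isg20 did not pass the test for either CM, with differences from IFNγ of 0.01, 0 and -0.96 for WT CAF CM and 0.62, 0.15 and -0.06 for KO CAF CM. The counts were 10 for WT CAF CM without WT CAF CM replicate 1 or IFNγ replicate 2, and 4 to 5 for KO CAF CM without IFNγ replicate 2, either KO CAF CM array. Dtx3l, Ifit2, Oasl1 and Parp9 were called in both comparisons whichever array was left out.

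The 2 arrays of a condition were not level for these genes. In not stimulated BMDMΦs replicate 2 was higher than replicate 1 in 38 of the 38 genes (median gap 0.33), with IL4 in 34 (0.56), with IFNγ in 35 (0.36) and with WT CAF CM in 27 (0.2), whereas with KO CAF CM replicate 1 was higher in 29 and replicate 2 in 8 (median gap -0.12). Over all probe sets, replicate 2 was higher in 47.4% to 52.8% and the median gap lay between -0.01 and 0.03. The widest gaps were 1.53 for Oasl1 with WT CAF CM and 1.43 for Rsad2 with IFNγ. The genes therefore moved as a group between arrays of the same condition, by 0.12 to 0.56 in the median, beside a median difference of -0.42 between WT and KO CAF CM. The part of this in the differences between conditions was not tested.

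**Figure D4:**
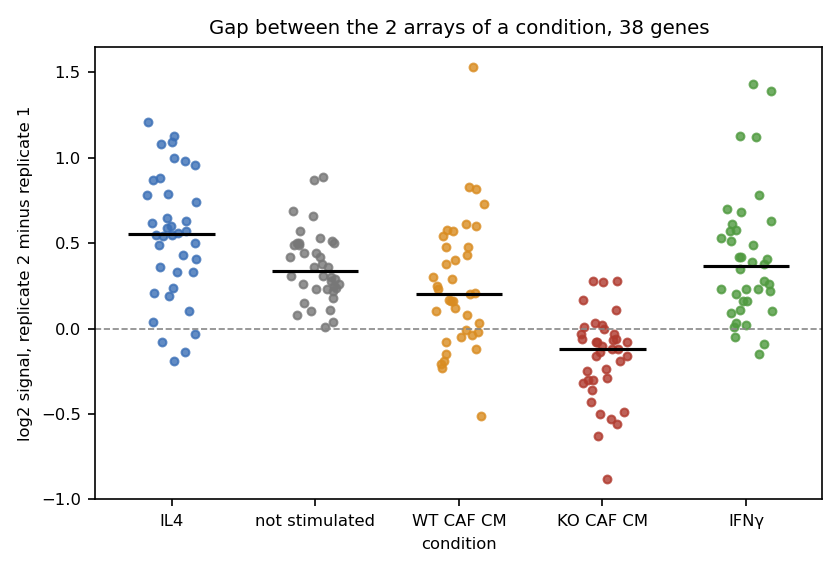
Log2 signal of replicate 2 minus replicate 1 (vertical axis) for each of the 38 genes (points) in the 5 conditions (horizontal axis), with the median as a black line and 0 as a dashed line. All 38 points of the not stimulated condition lie above 0, and the median is below 0 with KO CAF CM.

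The genes that make and transmit the interferon signal were read from lists of the same pathway. Among 8 interferon genes measured, none was called in any comparison by limma, and none had an unadjusted p under 0.05. Ifnb1, the first type I interferon made by most cells, had log2 signals of 5.51 and 5.55 without stimulus, 5.41 and 5.68 with WT CAF CM, 5.67 and 6.01 after KO CAF CM, 5.63 and 6.09 with IL4, and 5.91 and 5.62 with IFNγ. These lay around the array medians, and an unexpressed gene cannot be told from a dim one on these arrays. Transcript levels at 48 h do not show interferon made earlier or brought with the CM.

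Of 7 receptor and kinase genes, 1 rose with WT CAF CM, 1 rose and 1 fell with KO CAF CM, 1 rose with IL4, and 2 rose and 2 fell with IFNγ. For this list and those that follow, 4.08% of all probe sets rose and 4.47% fell with WT CAF CM. These shares were 6.83% and 8.00% with KO CAF CM, 1.66% and 2.38% with IL4, and 5.38% and 6.68% with IFNγ. A count of 1 in lists this short says little about a list. Jak2, a kinase of the IFNγ and many cytokine receptors, had log2 signals of 11.32 and 11.13 without stimulus, 13.56 and 14.29 with WT CAF CM, 14.01 and 13.92 after KO CAF CM, 13.06 and 13.01 with IL4, and 12.85 and 12.9 with IFNγ. It rose with each stimulus, by 2.7 (SE 0.23, adjusted p = 1.8e-05) with WT CAF CM and 2.74 (SE 0.23, adjusted p = 1e-05) with KO CAF CM, and the CAF CM arrays were above all others. Ifngr1, the ligand-binding chain of the IFNγ receptor, fell with KO CAF CM (-1.42, SE 0.19, adjusted p = 0.00034) and IFNγ (-1.05, SE 0.19, adjusted p = 0.0031). Its log2 signals were 13.87 and 13.73 without stimulus, 13.3 and 13.06 with WT CAF CM, and 12.36 and 12.39 with KO CAF CM. The lower signal with WT CAF CM was not called. Ifnar1 fell with IFNγ (-0.71, SE 0.21, adjusted p = 0.047, lost without any of 6 arrays) and Ifnar2 was not called, with differences between -0.56 and 0.37.

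Among 7 transcription factors, 3 rose with IFNγ, and with CAF CM none rose and 1 fell for each CM (Irf5 by -1.2 with WT, Irf8 by -0.93 with KO, each lost without any of 3 arrays). Irf1, a factor induced by IFNγ, had log2 signals of 16.15 and 16.13 with IFNγ, 13.59 and 13.12 with IL4, 12.24 and 11.72 without stimulus, 11.81 and 11.49 with WT CAF CM, and 12.11 and 11.56 with KO CAF CM. It rose with IFNγ (4.16, SE 0.26, 17.9-fold, adjusted p = 9.7e-07) and with IL4 (1.38, SE 0.26, adjusted p = 0.011), the latter lost without IL4 replicate 1 or not stimulated replicate 2, while the arrays of either CAF CM overlapped the not stimulated ones. Stat2 rose with IFNγ (1.43, SE 0.21, adjusted p = 0.00063), with 0.38 and 0.54 for WT and KO CAF CM (SE 0.21, adjusted p = 0.37 and 0.12). Irf7, the factor that amplifies type I interferon, had log2 signals of 14.71 and 15.69 without stimulus and 13.15 and 14.75 with IL4, and was not called in any comparison with not stimulated BMDMΦs (0.69 with WT CAF CM, 0.67 with KO CAF CM, -1.25 with IL4 and 1.42 with IFNγ, SE 0.46 each). Irf9 was not called (differences from -0.89 to -0.09).

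Of 12 inducers of type I interferon, 3 rose with each CAF CM, Ikbke, Myd88 and Ddx58 in both cases, and 1 fell with WT and 4 with KO CAF CM. Ikbke, a kinase of IRF3 and IRF7, gave 13.28 and 13.24 in WT CAF CM arrays and 13.93 and 13.68 in KO CAF CM arrays on the log2 scale against 10.32 to 11.42 in the other 6 arrays, a rise of 2.15 (SE 0.23, adjusted p = 9.7e-05) and 2.7 (SE 0.23, adjusted p = 1.1e-05). Ddx58, which encodes the RNA sensor RIG-I and is itself stimulated by interferon, rose by 1.01 with WT CAF CM (SE 0.23, adjusted p = 0.018, lost without any of 3 arrays) and 1.21 with KO CAF CM (SE 0.23, adjusted p = 0.0039), fell by 1.22 with IL4 (SE 0.23, adjusted p = 0.012, lost without IL4 replicate 1 or not stimulated replicate 2) and was at 0.02 with IFNγ (SE 0.23, adjusted p = 0.98). Tlr9, a sensor of DNA, rose with IFNγ (3.8, SE 0.26, adjusted p = 2.1e-06) and fell with WT CAF CM (-1.11), KO CAF CM (-1.5) and IL4 (-1.81), with adjusted p = 0.02, 0.0021 and 0.0022 by limma, the call with WT CAF CM being lost without any of 3 arrays. Sting1, the adaptor of DNA sensing, rose with IFNγ (3.37, SE 0.34, adjusted p = 4.4e-05) and fell with KO CAF CM (-1.75, SE 0.34, adjusted p = 0.0045). With WT CAF CM its log2 signals were 11.37 and 10.17 against 11.86 and 11.59 without stimulus, a difference that was not called.

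Of 5 feedback inhibitors, 3 rose with WT CAF CM (Socs1, Socs3 and Ptpn6), the same number with KO CAF CM, and 4 with IFNγ. With IL4 Socs1 rose and Ptpn6 fell. Ptpn6, which encodes the phosphatase SHP-1, had differences of 1.08, 1.39, 1.06 and -1.01 with WT CAF CM, KO CAF CM, IFNγ and IL4. Except with KO CAF CM, its calls were lost on leaving out certain single arrays, 1 with IFNγ and 2 each with WT CAF CM and IL4. Ptpn2, another phosphatase of JAK kinases, rose with IFNγ by 1.51 (SE 0.21, adjusted p = 0.00047). Pias1 was not called, with differences of -0.52 to -0.2. Socs1, which blocks JAK kinases, had log2 signals of 4.59 and 5.3 without stimulus, 7.19 and 8.72 with WT CAF CM, 7.79 and 5.95 after KO CAF CM, 8.46 and 8.88 with IL4, and 12.6 and 12.71 with IFNγ. Every stimulated array was above the not stimulated ones, and the rise was 3.01 with WT CAF CM, 1.93 with KO CAF CM, 3.73 with IL4 and 7.71 with IFNγ (SE 0.56 each, adjusted p = 0.005, 0.037, 0.0027 and 2.9e-06 by limma). The call with KO CAF CM was lost without any of 7 arrays and that with WT CAF CM without WT CAF CM replicate 2 or not stimulated replicate 1. Socs3, which acts on the receptors of the IL6 family, rose with WT CAF CM (5.02, SE 0.59, adjusted p = 0.00021) and KO CAF CM (3.75, SE 0.59, adjusted p = 0.0011), and with IFNγ by 2 (SE 0.59, adjusted p = 0.049, lost without any of 8 arrays). Its log2 signals were 4.66 and 4.16 without stimulus, 8.2 and 10.66 with WT CAF CM, and 8.49 and 7.83 with KO CAF CM. Without stimulus both Socs1 and Socs3 lay under the array medians of 5.62 and 5.71, so that the size of their rises is uncertain. WT and KO CAF CM differed by 1.09 for Socs1 and 1.27 for Socs3, with adjusted p = 0.54 and 0.49.

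**Figure D5:**
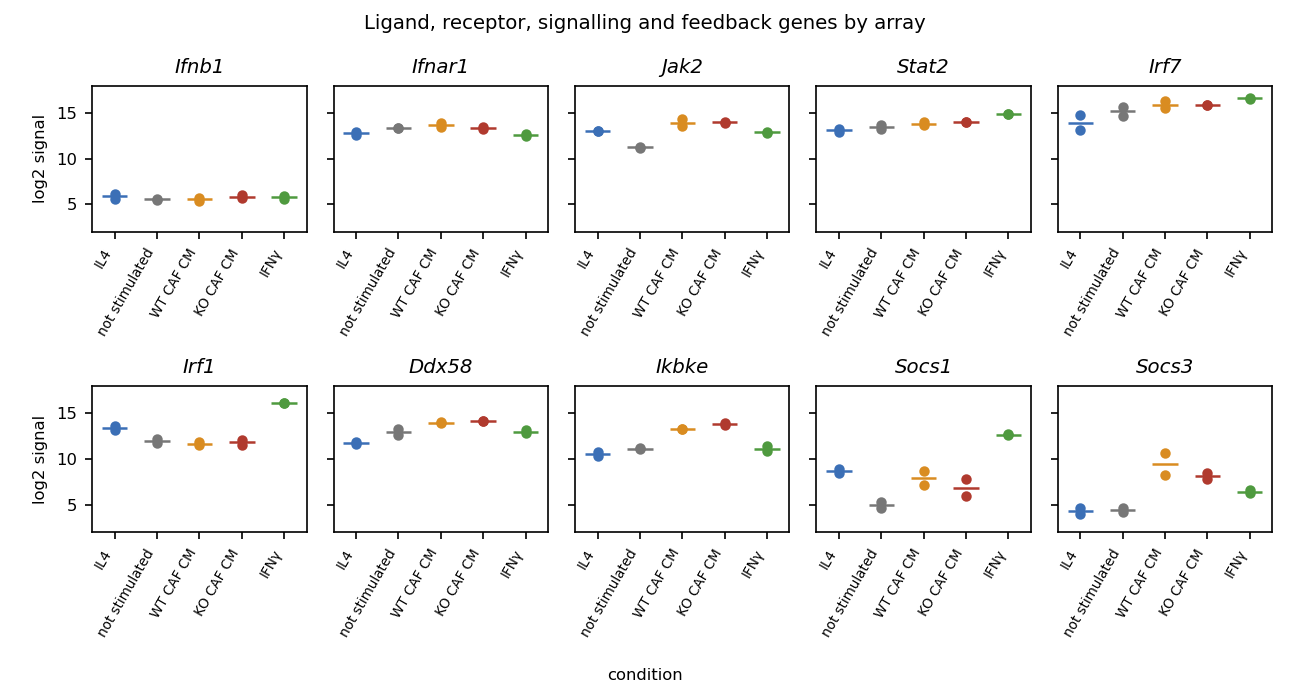
Log2 signals (vertical axis) of 10 ligand, receptor, signalling and feedback genes in the 5 conditions (horizontal axis), with a point for each array and a line for the mean of 2. Ifnb1 stays between 5.41 and 6.09 in all arrays, Jak2 and Ikbke are highest with CAF CM, and Irf1 and Socs1 are highest with IFNγ.

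Genes listed as selective for IFNγ were set beside the 38 genes. All 10 measured rose with IFNγ (median 3.61), 3 rose with WT CAF CM, 4 with KO CAF CM, and 2 rose and 1 fell with IL4. Some were thus not selective here. Nos2 rose by 3.12 with WT CAF CM, 2.58 with KO CAF CM and 3.13 with IFNγ. The call with KO CAF CM was lost without any of 3 arrays, and the others each without any of 2. Cd274 rose by 2.79 with WT CAF CM, 3.03 with KO CAF CM and 2.23 with IL4, beside 4.09 with IFNγ. Gbp2 rose by 2.75, 3.73 and 1.49 in the same order, beside 7.12, the call with IL4 being lost without any of 5 arrays. Cxcl9, a chemokine that draws T cells, rose with IFNγ by 10.55 (SE 0.7, adjusted p = 1.6e-06) and Iigp1, an immunity-related GTPase, by 9.52 (SE 0.26, adjusted p = 1.1e-09). Against IFNγ, 9 of the 10 were lower with either CAF CM, with a median of -2.96 in each case. The list was chosen for genes that IFNγ induces, with earlier results of these data known. Its rises with IFNγ and its distance from IFNγ therefore follow in part from that choice, and no contrast with the 38 genes is drawn.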

How the data were processed

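Total RNA of BMDMΦs was read on 10 Clariom S mouse arrays, 2 for each of 5 conditions. The deposited values are log2 signals per probe set, which the authors summarised and normalised by RMA (version not given in the sources used here) and rounded to 2 decimals. RMA fixes similar distributions in all arrays, so that a change shared by most genes is not seen. Depth does not apply to arrays, and their number limits the precision. Samples were grouped by their titles. Probe sets were named from the platform annotation (19572 with 1 symbol, 0 with several, 2634 unnamed here), and probes of near-identical gene copies were not separated.

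limma 3.58.1 (R 4.3.3) was fitted to all 22206 probe sets and 10 arrays, with a mean per condition, 5 residual and 6.43 prior degrees of freedom, and 7 comparisons, with Benjamini-Hochberg adjustment of each across the whole table. The script was tested on simulated data. All 38 measured genes enter the counts, none having been filtered. The text names every gene of the list, and pathway genes from lists of ligands, receptors, transcription factors, inducers and inhibitors. The members and the lists were chosen with earlier results of these data known. Alternatives were the dimmest 33.3% of probe sets left out, the 2 groups alone, array weights, trend and robust moderation, quantile normalisation, median centring, 1 probe set per gene, other thresholds, the replicate number as a block, and each array left out.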

Additional observations from a re-analysis of the deposited data

How the results depend on the processing

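No called difference of the 38 genes changed sign under any alternative. With trend and robust moderation, the called genes numbered 12 for WT CAF CM and 11 for IL4 against not stimulated, 1 for WT against KO CAF CM (Herc6) and 16 for KO CAF CM against IFNγ. With an unadjusted p under 0.05 and a difference of at least 2-fold, 4 genes passed for WT against KO CAF CM (Ifit1, Ifit2, Oasl1 and Mx1). All other counts of the planned settings, apart from those with an array left out and the replicate block, were within 1.5 times the reported ones. The titles open with a number that recurs across the 5 conditions and that the labels do not explain. Over all probe sets the correlations of same-numbered deviations were -0.05 to 0.19 in 10 pairs of conditions, which was not taken as pairing, although replicate 2 was the higher array for most of the 38 genes in 4 of the 5 conditions. With the replicate block, 2 genes were called for WT against KO CAF CM (Ifit1 and Mx1), and against not stimulated 9 with WT CAF CM, 23 with KO CAF CM, 10 with IL4 and 31 with IFNγ. Leaving out 1 array gave 2 to 7 calls for WT CAF CM, 11 to 22 for KO CAF CM, 1 to 8 for IL4 and 20 to 31 for IFNγ against not stimulated, 10 to 19 and 4 to 10 for WT and KO CAF CM against IFNγ, and 0 to 0 for WT against KO CAF CM. Where this left 1 array in a condition, it was assumed to vary like the others. With a stricter form of the ISRE letters, AGTTTC and TTTC separated by any 2 bases on either strand, 7 of the 35 promoters held a match, and 0.271% of all.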
